A study of Mus musculus with 29 samples.

Results

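Ovaries of adult mice that lack Cdkn1b were compared with wild-type ovaries at 12 weeks of age, across all genes measured by bulk RNA sequencing. The comparison took every sample whose title gave 12 weeks, which was 7 of the 29 samples of the series. Of these, 4 were wild type (Cdkn1b +/+) and 3 were null (Cdkn1b -/-, titled p27null). The series also held ovaries of both genotypes from 2 embryonic ages and from postnatal day 8 (PND8), and it was designed to study cell cycle regulation in the developing ovary. All ovaries were taken apart into cells with papain before RNA was extracted, so each library is a mixture of the cells that came through this step. The replicates of the null group carry the numbers 1, 3 and 4. The labels do not say how the allele was made, which strain carried it, the cycle stage of the females, or whether samples came from separate animals. P-values therefore measure the spread between these samples, which may be technical in part.

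Cdkn1b encodes p27Kip1, an inhibitor of cyclin-dependent kinases that holds cells in a resting state. In the ovary it is known from oocytes of primordial follicles, where it restrains their activation, and from granulosa cells that leave the cell cycle as they luteinise. Mice without it are large, and the females are infertile, with early loss of follicles and failing corpora lutea. An adult ovary holds oocytes with their granulosa cells, androgen-making theca cells, progesterone-making corpora lutea, a surface epithelium, stroma, vessels and immune cells.

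The 7 libraries held 24072433 to 41015482 estimated counts, and values are given as CPM, the counts per 1000000 counts of a library after scaling. A total of 3 counts, below which a value is read only as near 0, was 0.0741 to 0.124 CPM. Mitochondrial transcripts made up 1.07% to 2.78% of counts. The libraries did not stand alike for every cell type, and 4 of them stood apart. Wild-type replicate 3 had the highest oocyte transcripts. Wild-type replicate 2 and null replicate 1 had the surface epithelium markers Upk3b, Msln and Krt19 near 0. Krt8 and Krt18, also defining markers of that list, were not near 0 there. Wild-type replicate 2 was highest for luteal and cholesterol supply genes. Null replicate 4 was highest for blood vessel, smooth muscle, macrophage and haemoglobin genes. Of 12 oviduct and rete epithelium genes, 6 passed the filter on low counts, and their median difference was 0.31. The oviduct glycoprotein gene Ovgp1 lay between 0.371 and 0.931 CPM in the 7 libraries, and Pax8 between 0 and 0.0911 CPM. Emx2 was the exception of the list, at 37.0 to 107.5 CPM in wild type and 37.1 to 46.1 CPM in null. In bulk RNA, fewer cells of a type and less RNA per cell cannot be told apart. This holds for each cell type list described here.

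**Figure D1:**
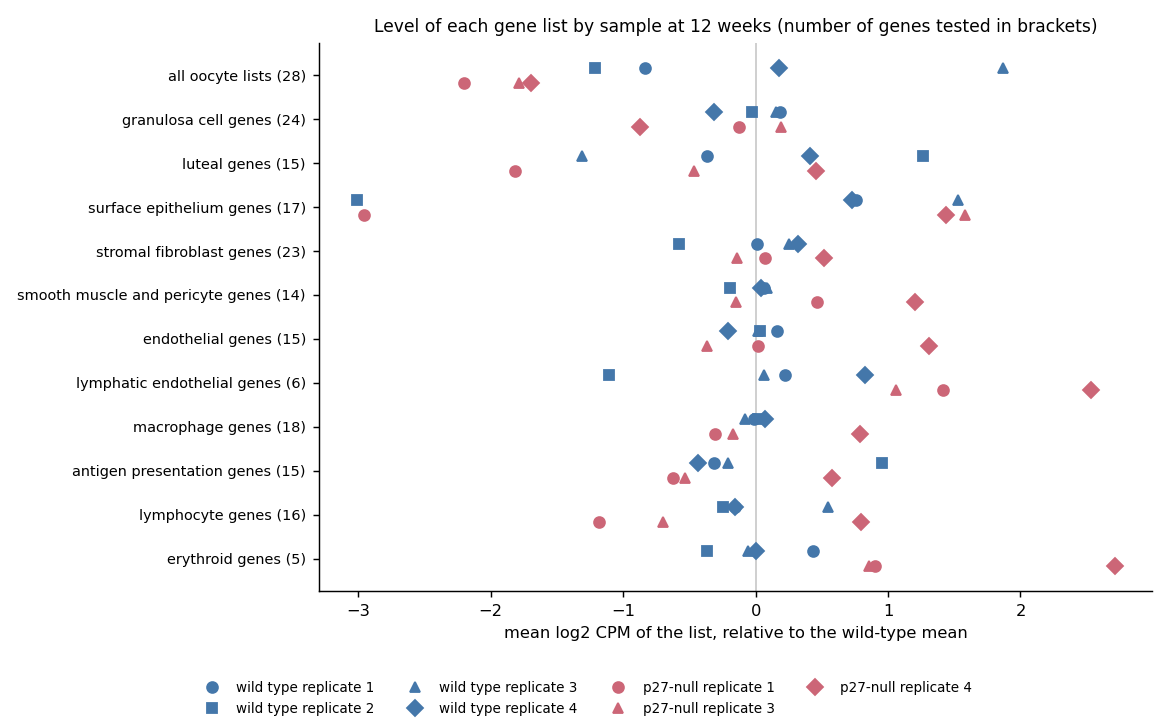
Mean log2 CPM of the tested genes of 12 lists in each of the 7 samples, relative to the wild-type mean (horizontal axis). Colour gives genotype and the marker shape gives the replicate number. Surface epithelium genes were lowest in wild-type replicate 2 and null replicate 1, and null replicate 4 was highest for endothelial and erythroid genes.

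Cdkn1b itself was at 119.9, 251, 119.6 and 219.6 CPM in wild-type replicates 1 to 4. It was at 40.2, 51.9 and 55.4 CPM in null replicates 1, 3 and 4. All 3 null samples lay below all wild-type samples, and the log2 difference was -1.85 (SE 0.309). Its adjusted p was 0.211 in edgeR's quasi-likelihood test with Benjamini-Hochberg adjustment and 5.01e-07 in DESeq2. The labels do not say which part of the gene the allele removes, so its remaining reads check the genotype only in part.

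Across 17396 genes tested, 2 passed the threshold of adjusted p below 0.05 in edgeR, which is 0.0115% of them. Both rose in the null ovary. At an unadjusted p below 0.05 there were 1675 genes (9.63%), 863 higher and 812 lower. The null and wild-type samples did not overlap for 887 genes with higher null values (5.1%) and for 799 with lower null values (4.59%). The count of calls depended on the tool. DESeq2 called 183 higher (1.05%) and 143 lower (0.822%), and limma-voom with sample weights called 7 in all. The median log2 difference over all genes was 0.00 with either scaling used. Genes other than the 2 are therefore described by their values and overlap, for part of them with the adjusted p of both tools, and not as changed.

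Srd5a1 encodes steroid 5-alpha-reductase type 1, which reduces testosterone to dihydrotestosterone and progesterone to dihydroprogesterone. Its level was 31.0, 30.2, 33.8 and 33.3 CPM in wild-type replicates 1 to 4. In null replicates 1, 3 and 4 it was 74.5, 62.6 and 82.8 CPM. The wild-type samples lay within 4 CPM of each other, and the lowest null sample was far above them. The log2 fold change was 1.19 (SE 0.11), or 2.29-fold, with adjusted p = 0.045 by edgeR's quasi-likelihood test and 1.33e-16 by DESeq2. The gene lies on the minus strand of chromosome 13 from 69573449 to 69611442 (GRCm38). Its promoter is shown because it is the steroid enzyme that passed the test. The window runs from 250 bases before to 50 after the RefSeq start (GRCm38.p6, chr13:69611414-69611713, minus strand), with GC boxes in capitals. A GC box was searched as GGGCGG on both strands.
Srd5a1: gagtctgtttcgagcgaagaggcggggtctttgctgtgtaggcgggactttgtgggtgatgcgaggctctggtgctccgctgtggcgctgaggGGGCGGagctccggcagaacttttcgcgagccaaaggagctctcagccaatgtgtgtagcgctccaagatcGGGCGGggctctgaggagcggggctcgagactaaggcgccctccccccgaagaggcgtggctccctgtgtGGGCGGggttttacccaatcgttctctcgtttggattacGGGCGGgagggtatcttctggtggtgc
The window held 4 GC boxes, beginning at positions -157, -86, -16 and 24 from the start. At least 1 was found in 35.9% of 27025 mouse promoters of the same length, and 4 or more in 5.5%.

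Zfp521 encodes a zinc-finger transcription factor known from blood, bone and neural progenitors. It was at 13.3, 11.7, 13.8 and 12.6 CPM in wild-type replicates 1 to 4, and at 30.3, 34.0 and 34.0 CPM in null replicates 1, 3 and 4. The log2 fold change was 1.35 (SE 0.107), or 2.55-fold, with adjusted p = 0.0288 by edgeR's quasi-likelihood test. Both calls rested on the full set of samples. When each of the 7 samples was left out in turn, Srd5a1 and Zfp521 each stayed below the threshold in 1 of 7 fits. Their log2 fold changes then ran from 1.10 to 1.28 and from 1.30 to 1.40, and their edgeR adjusted p reached 0.318 and 0.296. Their direction and size did not depend on any single sample, while the call did.

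**Figure D2:**
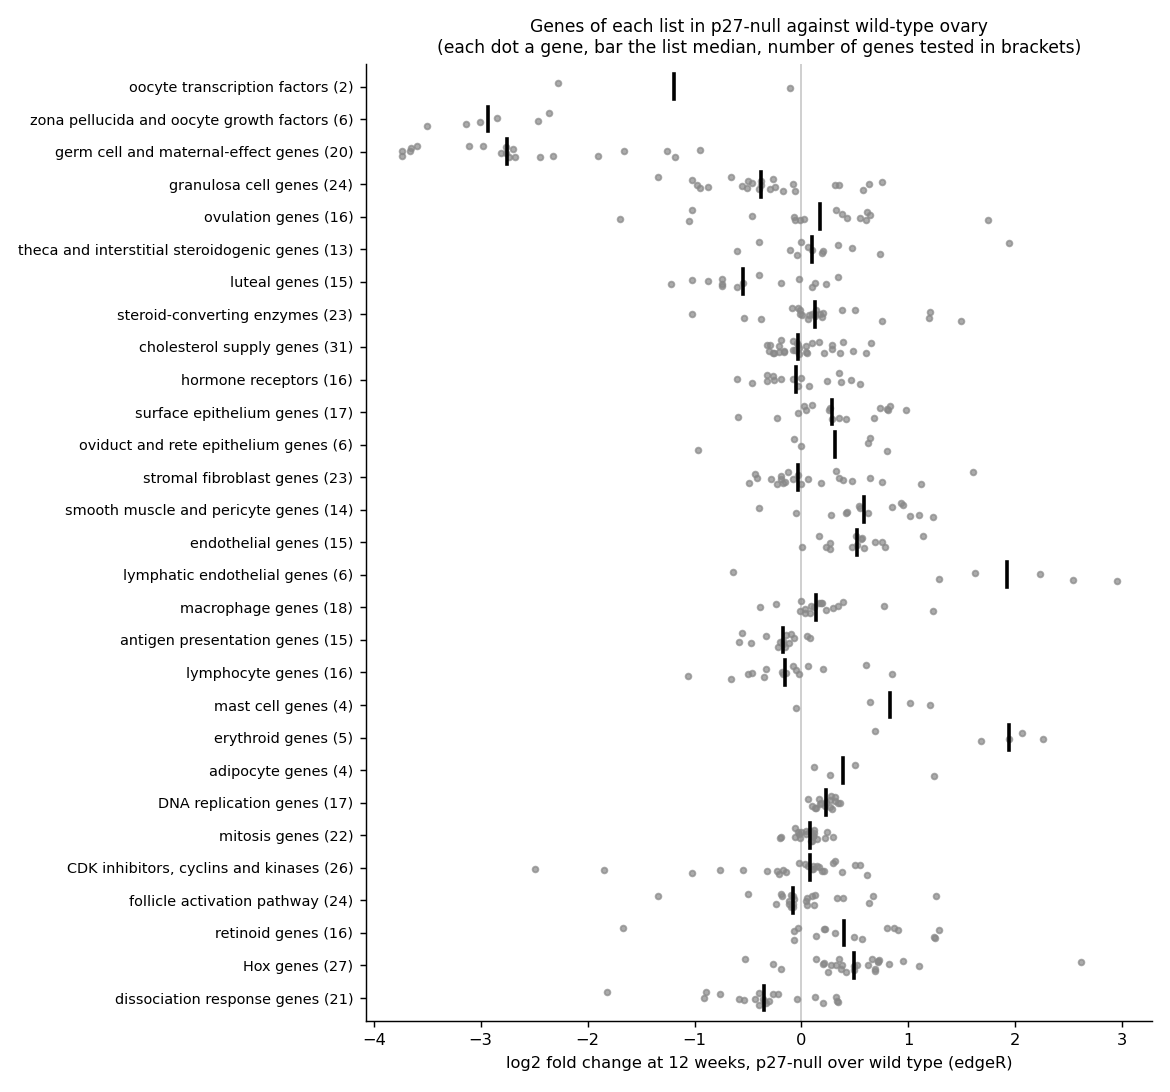
Log2 fold change at 12 weeks of every tested gene (dots) in 29 gene lists, with the list median (bar). The zona pellucida and germ cell lists lie far to the left, with medians of -2.93 and -2.75, while the cell cycle and cholesterol lists lie close to 0.

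Oocyte transcripts were lower in null ovaries. Of 42 oocyte genes in 3 lists, 28 passed the filter on low counts, and all 28 had lower mean values in the null group. Their median log2 difference was -2.75, against 0.00 over all genes tested. The null samples lay wholly below the wild-type samples for 11 of the 28, a share to be set beside the 4.59% of all genes. No single oocyte gene passed edgeR's threshold. DESeq2 called 11 of the 28, all lower, beside 0.822% of all genes called lower. A gene could pass the filter through the wild-type group alone, so the count over the genes that passed is a description. The 14 genes under the filter were scarce everywhere: the highest was Oog1, at 3.40 CPM in wild-type replicate 3, and no null value was above the 0.321 CPM of Sycp3.

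The promoters of Zp3 and Bmp15 are shown as the zona and growth factor genes whose null and wild-type samples did not overlap. Both are RefSeq windows on GRCm38.p6 from 250 bases before to 50 after the start. For Zp3 (chr5:135979855-135980154, plus strand) the capitals mark E-boxes, searched as CANNTG on both strands, which reads the same on either strand. For Bmp15 (chrX:6320675-6320974, minus strand) they mark the NOBOX element, searched as TAATTG or TAATTA on both strands.
Zp3: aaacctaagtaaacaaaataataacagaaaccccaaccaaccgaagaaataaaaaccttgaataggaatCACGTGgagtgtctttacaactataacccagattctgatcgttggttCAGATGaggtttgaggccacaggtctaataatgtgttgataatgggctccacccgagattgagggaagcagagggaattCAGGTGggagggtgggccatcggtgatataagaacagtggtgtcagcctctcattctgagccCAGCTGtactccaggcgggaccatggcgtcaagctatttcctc
Bmp15: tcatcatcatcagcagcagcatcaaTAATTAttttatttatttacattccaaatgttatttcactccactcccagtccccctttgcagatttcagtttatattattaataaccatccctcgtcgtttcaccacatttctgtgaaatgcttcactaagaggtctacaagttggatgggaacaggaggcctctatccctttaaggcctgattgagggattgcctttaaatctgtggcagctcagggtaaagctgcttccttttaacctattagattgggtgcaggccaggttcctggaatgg
The Zp3 window held 4 E-boxes, beginning at -181, -134, -55 and 8 from the start. At least 1 E-box was found in 72.1% of all 27025 promoters and 4 or more in 6.52%. The Bmp15 window held 1 NOBOX element, beginning at -225, and 12.6% of all promoters held at least 1.

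Among the zona pellucida and oocyte growth factor genes, all 6 tested of 9 were lower, with a median of -2.93. Zp3, a glycoprotein of the egg coat, was at 1.42, 0.759, 11.9 and 4.03 CPM in wild-type replicates 1 to 4. Its null values were 0.662, 0.618 and 0.586 CPM. The null samples were close together and below every wild-type sample, while the wild-type samples spread widely. The log2 difference was -2.85 (SE 0.951), with adjusted p = 0.445 in edgeR and 0.0323 in DESeq2.
Bmp15, a growth factor that oocytes send to granulosa cells, was at 1.31, 1.15, 13.95 and 2.86 CPM in wild type and at 0.455, 0.469 and 0.345 CPM in null. The difference was -3.50 (SE 1.02), with adjusted p = 0.408 in edgeR and 0.00546 in DESeq2. Gdf9, its close relative, was at 4.18, 2.43, 32.3 and 7.995 CPM in wild type. In null samples it was at 1.82, 2.47 and 2.55 CPM, which overlapped wild-type replicate 2. Summed over the 6 tested genes, the list stood at 10.3, 6.05, 84.2 and 26.1 CPM in wild-type replicates 1 to 4 and at 3.93, 5.58 and 5.35 CPM in the null samples. The summed levels did not overlap, and wild-type replicate 2 lay close to the null samples. These 6 were lower whichever sample was left out, with a median of -1.79 without wild-type replicate 3.

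The germ cell and maternal-effect list had 20 tested genes of 26, all lower, with a median of -2.75. Maternal-effect genes are transcribed in the growing oocyte and act in the early embryo. Nlrp14 was at 2.53, 1.61, 25.9 and 7.90 CPM in wild type and at 0.331, 0.939 and 0.931 CPM in null. Its difference of -3.66 (SE 1.07) had an adjusted p of 0.408 in edgeR and 0.0023 in DESeq2. Padi6, needed for the lattices of the egg cytoplasm, was at 2.90, 2.01, 27.8 and 9.99 CPM in wild type and at 0.703, 2.27 and 1.76 CPM in null. Nlrp5, a member of the subcortical maternal complex, had a difference of -2.98 (SE 0.96). H1foo, the oocyte linker histone, had a difference of -3.11 with no overlap. Tle6, of the same maternal complex, was at 23.1, 20.1, 42.4 and 32.2 CPM in wild type and at 13.3, 11.2 and 14.6 CPM in null. Its groups did not overlap, with a difference of -1.18 (SE 0.268) and adjusted p of 0.351 in edgeR and 0.00364 in DESeq2.
The germ cell genes Ddx4, an RNA helicase, and Dazl, an RNA-binding protein, were low in both groups. Ddx4 was at 0.251 to 0.745 CPM in wild type and 0.0988 to 0.372 CPM in null, and Dazl at 0.246 to 1.76 and 0.222 to 0.414 CPM. Both overlapped. Nobox, an oocyte transcription factor, was at 0.585, 0.638, 5.40 and 2.15 CPM in wild type and at 0.248, 0.371 and 0.724 CPM in null. The other tested gene of its list, Taf4b, was at 22.9 to 58.2 CPM in wild type and 28.9 to 44.9 CPM in null, a difference of -0.11 that turned to the other sign when single samples were left out (-0.30 to 0.13).

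**Figure D3:**
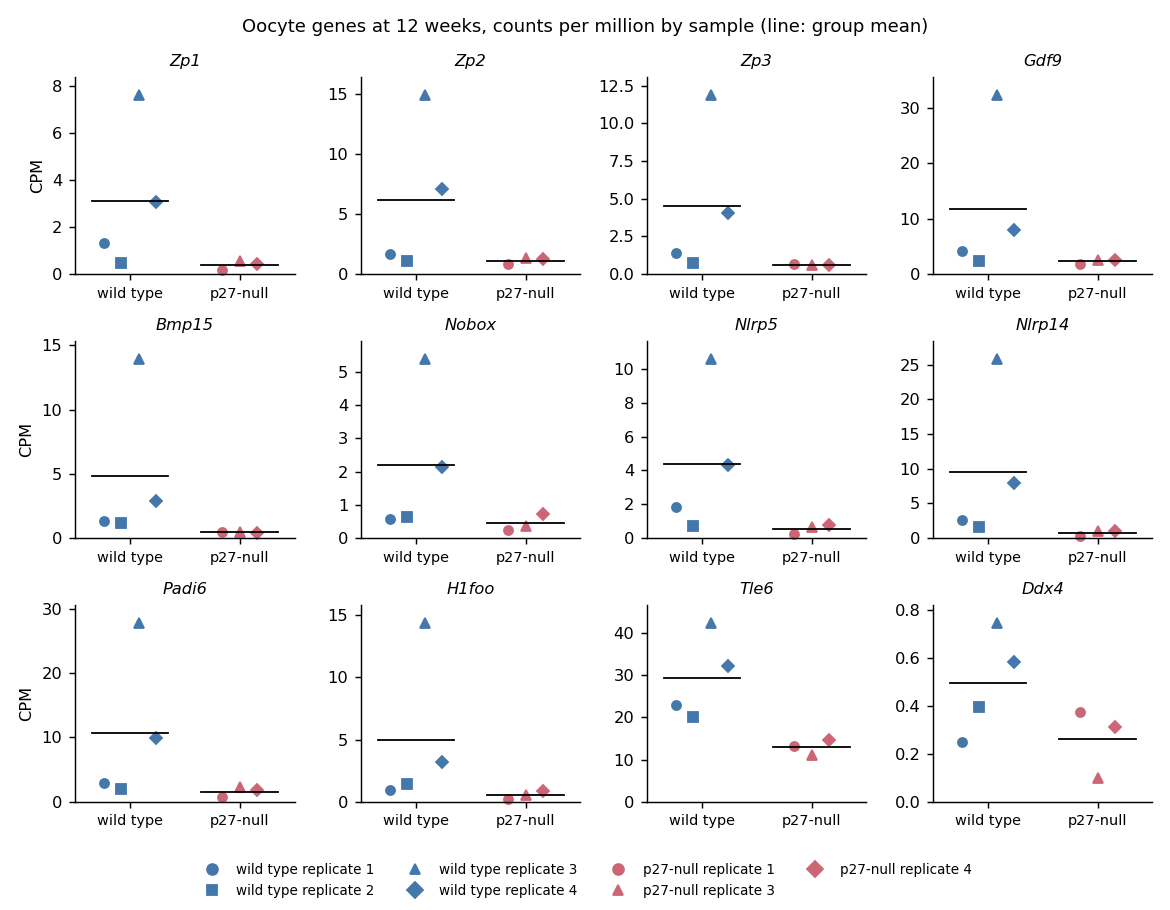
CPM of 12 oocyte genes in each of the 4 wild-type and 3 null samples, with the group mean as a line. Wild-type replicate 3 is the highest sample in every panel, reaching 32.3 CPM for Gdf9, and the 3 null samples are low and close together for the zona genes.

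The size of the oocyte difference rested much on wild-type replicate 3, the direction less so. Without that sample the median of the 28 genes was -1.51 and all 28 were still lower. Leaving out wild-type replicate 1 or 2, or null replicate 4, left 27 of 28 lower. The 28 genes were those that passed the filter with all samples, so these counts too are a description. Replicate 2 of the wild type had the lowest oocyte level of its group, with Zp1 at 0.456 CPM against 0.165 to 0.543 CPM in the null samples. Within the wild-type group the summed zona level ranged from 6.05 to 84.2 CPM, a spread wider than the gap between its lowest sample and the null samples.

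Granulosa cells surround the oocyte, convert androgen into oestrogen and make the inhibins and anti-Mullerian hormone. All 24 genes of this list were tested; 5 were higher and 19 lower in null, with a median of -0.38, and none passed edgeR. Amh, made by granulosa cells of small growing follicles, was at 808, 296, 973 and 695 CPM in wild type. In null samples it was at 229, 393 and 199 CPM. Null replicate 3 overlapped wild-type replicate 2, and the difference was -1.34 (SE 0.416), with adjusted p = 0.423 in edgeR and 0.032 in DESeq2. Ccnd2, the D-type cyclin that FSH induces in granulosa cells, was at 506, 467, 872 and 573 CPM in wild type and at 262, 404 and 229.9 CPM in null. Its groups did not overlap, with a difference of -1.02 (SE 0.278) and adjusted p = 0.397 in edgeR and 0.0234 in DESeq2. The gene lies on chromosome 6 from 127125162 to 127152193, within 10 Mb of Cdkn1b, and effects of DNA linked to the null allele cannot be told apart there. Foxl2, which maintains granulosa identity, was at 283 to 398 CPM in wild type and 224 to 279.9 CPM in null, a difference of -0.38 without overlap.
Other genes of the list went in different directions. Inha, a subunit of inhibin, was at 1555 to 2850 CPM in wild type and 1270.4 to 2726 CPM in null, a difference of -0.06. Cyp19a1, the aromatase that makes oestradiol, was at 84.3, 57.3, 29.2 and 7.78 CPM in wild type and at 76.7, 129.6 and 18.5 CPM in null. The FSH receptor gene Fshr had a difference of -0.46 with overlap. Null replicate 4 was the lowest of the 7 samples for the summed list, at 6240.1 CPM against 9084 to 13259.5 CPM in wild type, and without it the median was -0.11.

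Theca and interstitial cells make androgen from cholesterol. Of their 13 tested genes, 8 were higher and 5 lower, with a median of 0.10. Cyp17a1, the enzyme that commits progestins to androgens, was at 392, 168, 14.1 and 10.5 CPM in wild type. Its null values were 708, 531 and 447 CPM, all above every wild-type sample. The wild-type values differed among themselves by far more than the null values did, so the difference of 1.94 had an SE of 1.11 and an adjusted p of 0.629 in edgeR (0.598 in DESeq2). Nr5a1, the nuclear receptor SF-1 that drives steroidogenic genes, was at 276, 241, 249 and 222 CPM in wild type and at 390.2, 322 and 311 CPM in null. Its groups did not overlap, with a difference of 0.47 (SE 0.117) and adjusted p = 0.37 in edgeR and 0.032 in DESeq2. Insl3, a theca peptide hormone, lay between 1.08 and 3.97 CPM in all samples. Star, the carrier of cholesterol into mitochondria, and Cyp11a1, the enzyme that cleaves its side chain, had differences of 0.34 and -0.40 with wide overlap.

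Of 23 tested steroid-converting enzymes, 16 were higher and 7 lower, with a median of 0.13. The groups did not overlap for 3 of the 23, all higher, against 5.1% of all genes higher and 4.59% lower. Srd5a1 was described above as called. Ephx1, a microsomal epoxide hydrolase, was at 87.1, 66.6, 70.5 and 75.1 CPM in wild type and at 215, 129 and 173 CPM in null (difference 1.20, SE 0.173; adjusted p = 0.161 in edgeR and 6.39e-07 in DESeq2). Hsd3b6, an isoform of the enzyme that forms progesterone, was at 1.07 to 1.88 CPM in wild type and at 5.63, 4.20 and 2.48 CPM in null, a difference of 1.49. It belongs to a family of near-identical genes, so its reads may be shared with other members. Hsd3b1, the isoform known from ovary and adrenal, had a difference of 0.10. The other reductases did not show the pattern of Srd5a1. Srd5a2 lay between 0.331 and 2.15 CPM in all samples, and Srd5a3 was at 23.1 to 25.2 CPM in wild type and 23.4 to 25.4 CPM in null. Akr1c14, which acts after the 5-alpha reduction, was at 309 to 429 CPM in wild type and 354 to 403 CPM in null.

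Corpora lutea form from ovulated follicles and make progesterone. Of 15 luteal genes, 4 were higher and 11 lower, the median was -0.55, and no gene's groups separated. The lutropin receptor gene Lhcgr was at 187, 633, 27.1 and 152 CPM in wild type and at 188, 92.2 and 213 CPM in null. Akr1c18, which inactivates progesterone when the corpus luteum regresses, was at 113, 69.3, 22.9 and 92.4 CPM in wild type. Among null samples it was at 107 CPM in replicate 3 and at 0.207 and 2.07 CPM in replicates 1 and 4. Sfrp4, a secreted Wnt modulator of the corpus luteum, was at 6.66 CPM in null replicate 1 and at 106 to 990.1 CPM in wild type. Ptgfr, the receptor through which prostaglandin triggers regression, was at 2.52 CPM in that same sample and at 43.95 to 253 CPM in wild type. Null replicate 1 was therefore the lowest of all 7 samples for these 3 genes, while the other null samples differed from gene to gene.
Wild-type replicate 2 was highest for Lhcgr, Cyp11a1 (5220.2 CPM against 605 to 3189.7 CPM in the other 6 samples) and Scarb1, and without it the luteal median was 0.13, with 8 genes higher and 7 lower. Without both wild-type replicate 2 and null replicate 1, 11 genes were higher and the median was 0.42, so the luteal list had no direction that held in every set of samples. Cited4 had the smallest unadjusted p of the list, 0.0253, with 35.8, 60.5, 17.0 and 52.6 CPM in wild type and 11.0, 22.8 and 19.5 CPM in null. The cholesterol supply genes, 13 higher and 18 lower, had a median of -0.03 with all samples. Without wild-type replicate 2 their median was 0.28 and 30 of 31 were higher. Of that list Abca1, which exports cholesterol from cells, was the gene whose groups separated, at 257 to 431 CPM in wild type and 491 to 568 CPM in null (difference 0.65, SE 0.186).

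Genes of ovulation had a median of 0.17 over 16 tested. Pgr, the progesterone receptor that the ovulatory surge induces, was at 1.25, 1.64, 1.31 and 0.769 CPM in wild type and at 2.03, 1.70 and 1.72 CPM in null, a narrow separation with an unadjusted p of 0.14. Ptgs2, the prostaglandin synthase of ovulation, lay between 0.119 and 0.851 CPM in all samples. Runx1, a transcription factor of granulosa and luteinising cells, was at 86.9, 110.3, 108 and 201 CPM in wild type and at 57.5, 73.9 and 51.9 CPM in null, a difference of -1.05 (SE 0.292) with adjusted p = 0.397 in edgeR and 0.0265 in DESeq2. Among 16 hormone receptors the median was -0.06. Nr3c1, the glucocorticoid receptor, was at 46.4 to 58.2 CPM in wild type and 62.2 to 88.5 CPM in null. Igf1r was at 406 to 482 CPM in wild type and 303 to 389.7 CPM in null. Each of these receptors separated the groups, with differences of 0.46 and -0.32. The oestrogen and prolactin receptor genes Esr1 and Prlr overlapped, with differences of 0.37 and -0.19.

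**Figure D4:**
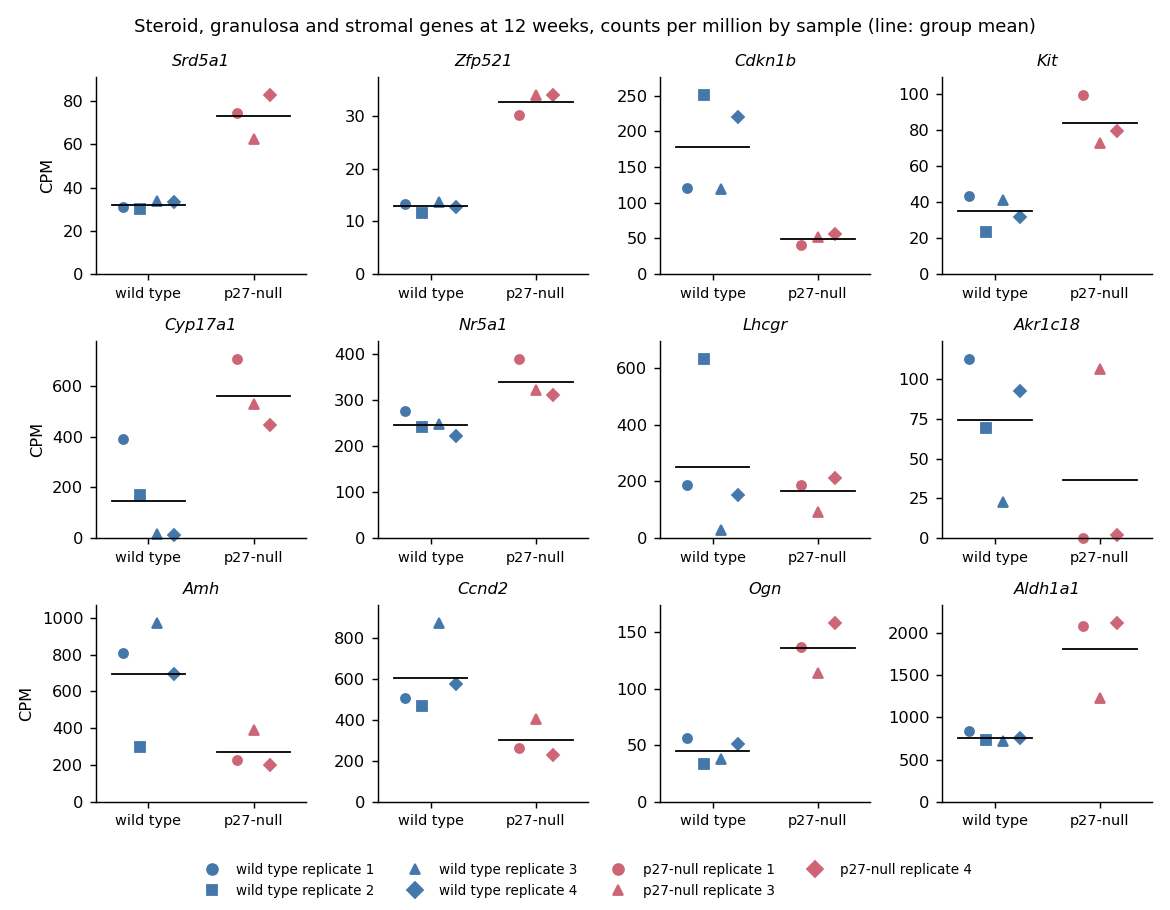
CPM of 12 genes of the soma in each of the 4 wild-type and 3 null samples, with the group mean as a line. Srd5a1, Zfp521, Kit, Ogn and Aldh1a1 separate the genotypes with higher null values, while Lhcgr and Akr1c18 vary as much within a genotype as between genotypes.

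The surface epithelium is a single layer of keratin-positive, mesothelium-like cells that covers the ovary. Of its 17 marker genes 14 were higher in null, with a median of 0.29, yet no gene's groups separated and no unadjusted p was below 0.05. The direction was not stable: the median was -0.04 without wild-type replicate 2, -0.15 without null replicate 3 and -1.10 by limma-voom with sample weights. Upk3b was at 15.0, 0.0304, 21.7 and 19.4 CPM in wild-type replicates 1 to 4 and at 0.0827, 34.5 and 39.3 CPM in null replicates 1, 3 and 4. Muc16, Msln and Lrrn4 had the same pattern, with counts at or near 0 in wild-type replicate 2 and null replicate 1. The keratin genes Krt8 and Krt18 did not fall near 0 there. Krt8 was at 53.5 and 50.3 CPM in these 2 samples, and Krt18 at 11.0 and 10.3 CPM. Their genotype differences were -0.23 and -0.03, with overlap. Without these 2 samples the median was 0.47, and 15 of 17 genes were higher in the 2 null samples left. Upk3b was then at 34.5 and 39.3 CPM in null against 15.0 to 21.7 CPM in wild type. Lrrn4 was at 6.37 and 7.59 CPM against 2.53 to 4.23 CPM. That choice was made after the values were seen and rests on these same genes, and it leaves 2 null samples. The values without the 2 low libraries are therefore a description only. What set these 2 libraries apart was not tested. Wt1, which is shared with granulosa and stromal cells, was at 103 to 257 CPM in wild type and 104 to 156 CPM in null.

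Stromal fibroblast genes showed no common direction: 11 of 23 were higher and 12 lower, with a median of -0.03. The fibrillar collagen Col1a1 was at 879, 523, 1097 and 1207 CPM in wild type and at 680, 577 and 815 CPM in null, with overlap, and Dcn and Pdgfra overlapped too. Ogn, a small leucine-rich proteoglycan of the matrix, stood out of the list. It was at 56.0, 33.8, 37.8 and 50.9 CPM in wild type and at 137, 114 and 158 CPM in null. The difference was 1.61 (SE 0.197), with adjusted p = 0.117 in edgeR and 2.31e-10 in DESeq2. Aspn, a related proteoglycan whose gene lies near Ogn on chromosome 13 (49544443 to 49567565, and 49608046 to 49624501 for Ogn), was at 6.20 to 8.21 CPM in wild type and 12.9 to 24.0 CPM in null. Mfap5, an elastic microfibril protein, was at 6.71 to 15.6 CPM in wild type and 16.3 to 34.7 CPM in null. Versican, encoded by Vcan and known from the matrix of follicles, had the opposite pattern. It was at 563, 385, 863 and 784 CPM in wild type and 195, 309 and 227 CPM in null. The difference was -1.41 (SE 0.301), with adjusted p = 0.338 in edgeR and 0.000448 in DESeq2.

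Contractile and vascular genes were higher, to a large extent in null replicate 4. Of 14 smooth muscle and pericyte genes 12 were higher, with a median of 0.59 and of 0.34 without that sample. The groups separated for 2 of the 14, both with higher null values. Acta2, smooth muscle actin, was at 313, 272, 323 and 311 CPM in wild type and at 508, 365 and 774 CPM in null. Its groups separated, with a difference of 0.85 (SE 0.229) and adjusted p = 0.397 in edgeR and 0.0265 in DESeq2. Myh11 and Rgs5 overlapped. Myh11 was at 145.6 to 186.7 CPM in wild type and at 321, 153.2 and 518.3 CPM in null. Rgs5 was at 92.71 to 134.7 CPM in wild type and at 105.2, 69.78 and 287.3 CPM in null. The Rgs5 difference of 0.42 ran from -0.40 to 0.75 when single samples were left out. All 15 endothelial genes were higher, with a median of 0.52. Pecam1, a junction protein of all vessels, was at 62.6 to 105 CPM in wild type and at 77.6, 64.0 and 232 CPM in null. Without null replicate 4 the median was -0.21 and 3 of the 15 were higher, so the endothelial difference was that of a single sample.
Of the lymphatic vessel genes, 4 were higher in every null sample than in every wild-type sample. Lyve1, a hyaluronan receptor of lymphatic endothelium, was at 2.62, 0.638, 1.43 and 2.89 CPM in wild type. In null samples it was at 10.7, 6.35 and 27.1 CPM. The difference was 2.95 (SE 0.632), with adjusted p = 0.338 in edgeR and 0.00021 in DESeq2. Mmrn1 was at 6.96, 1.85, 6.53 and 16.9 CPM in wild type and 34.2, 22.9 and 84.2 CPM in null. Ccl21a, the chemokine that guides cells into lymphatics, was at 4.47 to 36.9 CPM in wild type and 48.7 to 150.4 CPM in null, though its near-identical copies make its counts uncertain. Prox1, the transcription factor that sets lymphatic identity, was at 1.88 to 5.78 CPM in wild type and at 8.60, 5.24 and 17.6 CPM in null, with overlap. In all, 5 of 6 genes were higher, 4 of 6 separated the groups with higher null values, against 5.1% of all genes, and the median was 1.92, or 1.34 without null replicate 4. None passed edgeR's main test, and the summed level of the list overlapped, at 89.5 to 233 CPM in wild type and 212 to 482 CPM in null. Pdpn, which other ovarian cells also express, was lower, at 57.7 to 161 CPM in wild type and 63.3 to 92.8 CPM in null.

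Haemoglobin genes followed a like order. Hbb-bs was at 59.3, 34.9, 37.5 and 45.7 CPM in wild type and at 92.3, 92.5 and 371 CPM in null, a difference of 2.06 (SE 0.505). All 5 tested erythroid genes were higher, with a median of 1.94, and 1.06 without null replicate 4. Haemoglobin genes have near-identical copies, so single values are uncertain. Macrophage, antigen presentation and lymphocyte lists had medians of 0.14, -0.17 and -0.15. Null replicate 4 was the highest sample for the summed macrophage list, at 657 CPM against 367 to 461 CPM in the other 6, and without it the medians of the 3 lists were -0.29, -0.79 and -1.01. Without wild-type replicate 2, which was highest for antigen presentation genes, the median of that list was 0.22. The part that blood and vessel content of null replicate 4 has in other differences was not tested. Genes of the response to dissociation were lower in 16 of 21 cases, with a median of -0.35. That list was high in wild-type replicate 1, where Fos stood at 136 CPM against 10.3 to 33.3 CPM in the other 6 samples, and without that sample its median was 0.03. The 4 tested mast cell genes, the 4 adipocyte genes and the 13 mitochondrially encoded genes had medians of 0.83, 0.38 and -0.20.

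Loss of a kinase inhibitor bears on the cell cycle, and the replication and mitosis lists differed little between the adult ovaries. All 17 DNA replication genes had higher null means, but by a median of 0.23, and none separated the groups. Without wild-type replicate 2, or without null replicate 3, 14 of the 17 were higher. Mcm2, a subunit of the replicative helicase, was at 102.5, 74.9, 148 and 96.7 CPM in wild type and at 134.6, 151 and 107.5 CPM in null. Pcna, the sliding clamp, was at 104 to 166 CPM in wild type and 144 to 164 CPM in null. Of 22 mitosis genes 15 were higher, with a median of 0.09, and Mki67 had a difference of 0.00. Without wild-type replicate 1, 7 of the 22 were higher. Wild-type replicate 3 was the highest wild-type sample for the summed lists of both phases.
The list of CDK inhibitors, cyclins and kinases had a median of 0.08 over 26 tested genes. Of these, 5 lay wholly lower in null, against 4.59% of all genes, and 1 wholly higher, against 5.1%. DESeq2 called 4 of them lower, against 0.822% of all genes, and 0 higher. Cdkn1b itself is in the list and among both lower counts. Single members of the list differed more. Cdk6, a kinase partner of D-type cyclins, was at 97.7, 101, 122 and 107 CPM in wild type and at 56.9, 74.3 and 58.0 CPM in null (difference -0.76, SE 0.127; adjusted p = 0.211 in edgeR and 0.000248 in DESeq2). Cdkn2c, the inhibitor p18, was at 24.3 to 39.6 CPM in wild type and 41.2 to 51.7 CPM in null, a difference of 0.61. Cdkn2b, the inhibitor p15, was at 31.5, 20.8, 5.87 and 8.27 CPM in wild type and at 0.910, 5.93 and 1.90 CPM in null, a difference of -2.49 in which null replicate 3 overlapped wild-type replicate 3. Cdkn1c, the inhibitor closest to p27, was at 6.04 to 10.5 CPM in wild type and 9.98 to 13.0 CPM in null, and Cdkn1a varied from 8.35 to 37.5 CPM without regard to genotype. Rbl2, the pocket protein p130, was at 119.6 to 156 CPM in wild type and 112.5 to 112.8 CPM in null, a difference of -0.32.

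Primordial follicles are activated through Kit and the PI3 kinase pathway, which Foxo3 opposes. Kit, the receptor of oocytes that theca and interstitial cells also carry, was at 43.3, 23.5, 41.1 and 31.7 CPM in wild type and at 99.3, 72.8 and 79.5 CPM in null. All null samples were above all wild-type samples, and oocyte markers were lower in the same null samples. Which cells the higher Kit level came from was not tested. The difference was 1.26 (SE 0.217), with adjusted p = 0.213 in edgeR and 7.04e-05 in DESeq2. Its ligand gene Kitl, a granulosa product, was at 132, 87.1, 196 and 162 CPM in wild type and at 225, 259 and 183 CPM in null. Foxo3 did not separate, with a difference of -0.12. Over the 24 genes of the pathway the median was -0.07.

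Retinoic acid made in the ovary acts on germ cells and on the soma. Of 16 tested retinoid genes 12 were higher, with a median of 0.40. Aldh1a1, which oxidises retinaldehyde to retinoic acid, was at 842, 731, 718 and 750.4 CPM in wild type and at 2081, 1225 and 2117 CPM in null (difference 1.25, SE 0.195; adjusted p = 0.19 in edgeR and 5.30e-07 in DESeq2). Rarres2, which encodes chemerin and responds to retinoids, was at 57.1, 53.2, 69.8 and 76.7 CPM in wild type and at 169, 121 and 183 CPM in null. Stra6, the receptor that takes up retinol, had the opposite pattern, at 89.0, 62.3, 152 and 119 CPM in wild type and 28.1, 41.9 and 29.6 CPM in null. Its difference was -1.67 (SE 0.31), with adjusted p = 0.27 in edgeR and 3.06e-05 in DESeq2. The degrading enzyme Cyp26b1 overlapped, at 4.80 to 14.8 CPM in wild type and 4.32 to 17.5 CPM in null.
Hox genes, which carry positional identity, were higher in 24 of 27 cases, with a median of 0.49. Of the 27, 7 separated the groups with higher null values, against 5.1% of all genes. Hoxd8 was at 28.2, 26.4, 26.7 and 27.4 CPM in wild type and at 45.5, 42.7 and 45.8 CPM in null. Its difference of 0.72 (SE 0.0811) came with little spread in either group, with adjusted p = 0.0731 in edgeR and 1.06e-12 in DESeq2. Hoxc6 was at 20.8 to 27.8 CPM in wild type and 30.3 to 34.8 CPM in null, and Hoxb7 at 1.60 to 2.76 and 3.97 to 4.55 CPM. Many Hox genes overlap neighbours or antisense transcripts, and the sources used here do not say whether counting used strand. Without wild-type replicate 2 and null replicate 1 the Hox median was 0.19.

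Beyond the lists, a rule named the 15 genes in each direction with the smallest unadjusted p among those with a mean of at least 2 CPM, at least 1 unit of log2 difference and groups that did not overlap. Those not yet given follow. Among those higher in null, Bpifb4, of a family of lipid-binding proteins, was at 20.8, 33.2, 30.8 and 25.5 CPM in wild type and at 159.6, 94.9 and 130.1 CPM in null. It missed edgeR's threshold narrowly, with a difference of 2.22 (SE 0.215) and adjusted p = 0.0521 in edgeR's quasi-likelihood test and 5.48e-18 in DESeq2. Serpina5, a serine protease inhibitor, was at 42.2, 23.4, 29.2 and 20.3 CPM in wild type and at 307, 107 and 244 CPM in null, at 2.93 log2 units the largest difference of the 15. Paqr9 was at 2.61 to 5.12 CPM in wild type and 13.0 to 21.8 CPM in null. Adgrg7, an adhesion G protein-coupled receptor, was at 1.43 to 2.26 CPM in wild type and 6.03 to 12.2 CPM in null. Cebpa, a transcription factor of differentiating cells, was at 42.8 to 72.0 CPM in wild type and 97.3 to 142 CPM in null. Dock8, a guanine nucleotide exchange factor, Klhl14 and Ush1g had differences of 1.40, 1.80 and 1.42. Null replicate 3 was the lowest of the 3 null samples for Bpifb4, Serpina5, Paqr9, Adgrg7, Cebpa, Dock8, Klhl14 and Ush1g.
Among those lower in null, Dynap, a dynactin-associated protein gene, was at 5.21, 3.55, 4.35 and 4.37 CPM in wild type and at 0.620, 0.469 and 0.310 CPM in null. Its difference of -3.22 (SE 0.339) had adjusted p = 0.0588 in edgeR's quasi-likelihood test and 1.87e-16 in DESeq2, with narrow spread in both groups. Foxq1, a forkhead transcription factor, was at 5.17 to 8.18 CPM in wild type and 0.744 to 1.80 CPM in null, and Klhl30 at 2.89 to 7.21 and 0.395 to 0.827 CPM. Fzd1, a Wnt receptor, was at 69.3, 50.3, 111 and 129 CPM in wild type and 17.6, 33.2 and 28.3 CPM in null. Sdc1, the proteoglycan syndecan-1, was at 298 to 483 CPM in wild type and 124 to 217 CPM in null. Casz1 and Plag1, both zinc-finger transcription factors, had differences of -1.02 and -1.76. Synb, an envelope gene of retroviral origin, Igsf9b, Cntnap5a and Ugt1a6a had differences of -1.25, -1.39, -2.34 and -1.49. Ugt1a6a shares its last exons with the other genes of its cluster, so its counts are uncertain.

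**Figure D5:**
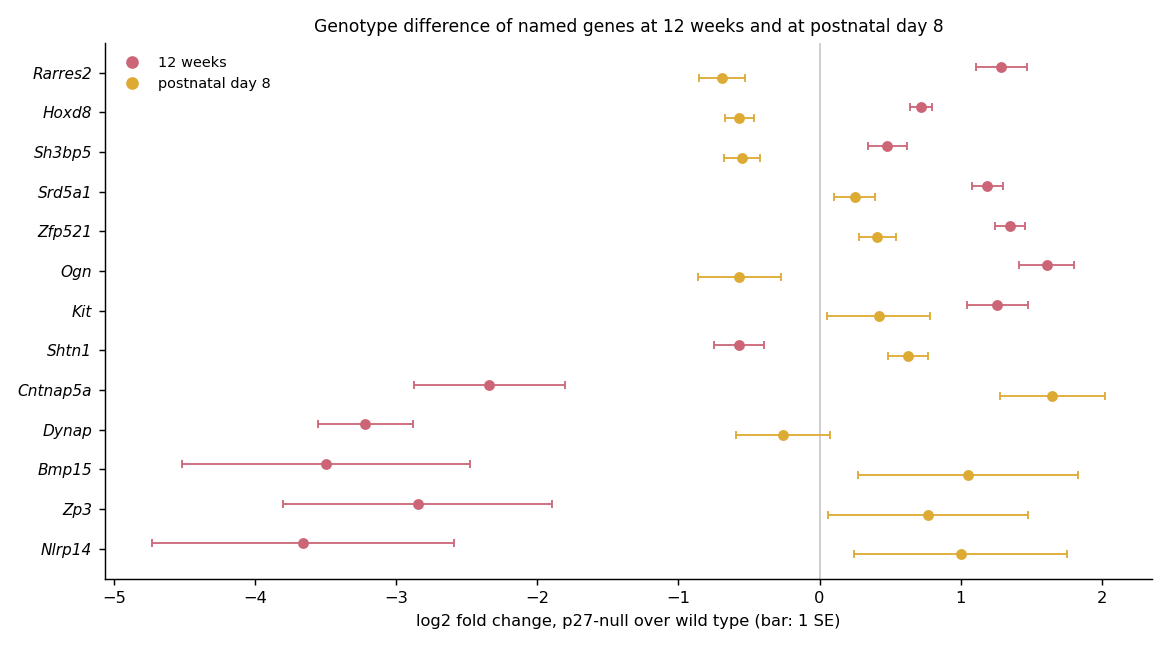
Log2 fold change, null over wild type, of 13 named genes at 12 weeks and at PND8, with bars of 1 SE. Rarres2, Hoxd8 and Sh3bp5 lie above 0 at 12 weeks and below 0 at PND8, and the oocyte genes Bmp15, Zp3 and Nlrp14 lie below 0 at 12 weeks with PND8 values above 0.

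The genotype difference at 12 weeks was set against that at PND8, which comes from 7 other samples, 4 wild type and 3 null. A test of the difference between the ages in 1 edgeR fit of 18768 genes called 2 (0.0107%), with 2064 at an unadjusted p below 0.05. DESeq2 called 308 and limma-voom with sample weights 4. Rarres2 was 1 of the 2. At PND8 it was at 72.9, 80.7, 59.3 and 85.5 CPM in wild type and at 45.6, 45.1 and 48.03 CPM in null, so that null samples were lower at PND8 and higher at 12 weeks. The difference between the ages was 2.00 (SE 0.226) with adjusted p = 0.00661. Hoxd8 was the other. At PND8 it was at 38.6, 31.4, 28.3 and 32.8 CPM in wild type and at 22.6, 19.5 and 24.0 CPM in null, again the opposite of 12 weeks. Its difference was 1.30 (SE 0.144), also with adjusted p = 0.00661 by edgeR's quasi-likelihood test.
Sh3bp5, Shtn1 and Cntnap5a also had groups that separated in opposite directions at the 2 ages, with edgeR adjusted p of 0.126, 0.126 and 0.0893. Cntnap5a, which encodes a contactin-associated protein, was at 10.8 to 21.9 CPM in wild type and 43.2 to 68.1 CPM in null at PND8. Dynap, lower at 12 weeks, overlapped at PND8, at 3.02 to 5.94 CPM in wild type and 2.21 to 6.00 CPM in null.
Oocyte genes had a median of 0.77 at PND8 and of -2.75 at 12 weeks. For Bmp15 the difference between the ages was -4.53 (SE 1.23), with an unadjusted p of 0.0028 and an adjusted p of 0.228 in edgeR. For Nlrp14 it was -4.61 (SE 1.3; adjusted p = 0.25 in edgeR). Srd5a1 and Zfp521 were less different at PND8, with log2 differences of 0.25 (SE 0.146) and 0.41 (SE 0.129). The change with age did not pass edgeR's threshold for either, with adjusted p of 0.162 and 0.128. Erythroid genes were higher at both ages, with medians of 3.07 at PND8 and 1.94 at 12 weeks. Medians of the lymphatic, surface epithelium and smooth muscle lists were -0.42, -0.52 and -0.31 at PND8, against 1.92, 0.29 and 0.59 at 12 weeks.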

How the data were processed

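Gene expression was measured by RNA sequencing; sample titles gave each genotype, age and replicate number. Per the file headers, the authors ran RSEM against Ensembl genes, and the deposited values are expected counts, which are estimated and need not be whole. The submitters' processing notes name Trim Galore, STAR 2.5.2, RSEM 1.3.0 and FastQC 0.11.5. The genome build, the Ensembl release and strandedness are not given in the sources used here. The header names a folder of 2 combined projects with no map to samples, so a batch could not be fitted. Symbols were matched for 51633 of 51912 gene IDs, and positions are from GENCODE on GRCm38, which may not be the authors' annotation.

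The expected counts (31.4% of values above 0 not whole) were rounded. Genes passed edgeR's filter at a minimum count of 10 and a minimum total of 15. Counts were scaled by TMM and tested with edgeR 4.0.16 (robust quasi-likelihood fit, Benjamini-Hochberg, limma 3.58.1, R 4.3.3) in the 7 samples. CPM are TMM-scaled, and the log2 CPM behind list levels and the correlations of sample deviations used a prior count of 2. Fold changes are those of the fits, without that prior count. The difference from PND8 was fitted in 14 samples. Alternatives were DESeq2 1.42.0, limma-voom with sample weights, other scaling and filters, thinned counts, all 29 samples, a replicate block and leaving out samples. The scripts were tested on simulated data.

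The 30 lists hold 513 symbols, of which 511 matched and 454 were tested. Named genes were Cdkn1b, every called gene, the 15 top genes in each direction, preset lead genes and the 2 genes of smallest p in each list, and 6 genes for the age difference. A few genes named by this rule are not reported here. Other list members quoted were chosen after their values were seen. The comparison and the lists were chosen with earlier results of these data known. Depth was 24072433 to 41015482 counts per sample, and values below 3 counts are read only as near 0.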

Additional observations from a re-analysis of the deposited data

Results flagged for a closer look

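Among 147 named genes tested in the 4 wild-type samples, 4 had a sample far from the other 3. This is a smaller share than the about 1 in 20 that chance flags. Bmp15 stood at 14 CPM in wild-type replicate 3, against 1.15 to 2.86 CPM in the other wild-type samples. Hba-a1, a haemoglobin gene, stood at 16.9 CPM in wild-type replicate 1, against 10.5 to 11.4 CPM. Tapbp, of the peptide-loading complex of antigen presentation, was low in wild-type replicate 1, at 111 CPM against 166 to 171 CPM. Ush1g was low in wild-type replicate 3, at 4.17 CPM against 5.37 to 5.47 CPM.

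The genotype difference of 2 genes differed between PND8 and 12 weeks by edgeR's test of that difference. Both genes were lower in null at PND8 and higher in null at 12 weeks. The value at 12 weeks lay above that at PND8 by 2.00 log2 units for Rarres2 and by 1.30 for Hoxd8.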

How the results depend on the processing

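The main test called 2 genes at 12 weeks. The count was 3 with other size factors or thinned counts, 12 with no filter on low counts, 326 by DESeq2, 7 by limma-voom with sample weights and 68 with all 29 samples in 1 fit, and each of these sets held both genes. It was 0 without the 2 samples low in surface epithelium, and 0 to 3 when single samples were left out: 3 without wild-type replicate 3 or null replicate 3, and 0 without any other. For the difference from PND8 the 2 calls became 308 by DESeq2, 4 by limma-voom and 5 with all 29 samples, and 1 to 13 when single samples were left out (1 without PND8 null replicate 3, 13 without 12-week null replicate 3). The replicate block called 10 genes at 12 weeks, 5 in each direction, none of them among the 2, and 10 for the age difference. Among the 12-week calls were Ogn, Mmrn1, Stra6, Fzd1 and Vcan, each with an edgeR adjusted p of 0.0497 with the block. Genes at an unadjusted p below 0.05 in edgeR numbered 2348 with the block and 1675 without it. No null sample carries the number 2, so with the block wild-type replicate 2 did not bear on the genotype difference. Leaving out that sample alone, without a block, gave 2129 genes. To compare samples across genotypes, the mean log2 CPM of its genotype group was first taken off each gene. Between samples with the same number, these deviations had correlations of 0.0962, 0.194 and 0.035. Other pairs of a wild-type and a null sample ran from -0.167 to 0.125. Null replicates 3 and 4 correlated best with their own number, and null replicate 1 did not. These values do not settle whether the numbers pair samples. The labels do not say so, and the main test did not pair them.

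Medians that moved were as follows. With single samples left out, oocyte transcription factors ran from -1.37 to -0.80, germ cell genes from -3.07 to -1.45, all oocyte genes from -3.07 to -1.51, hormone receptors from -0.09 to 0.17, endothelial genes from -0.21 to 0.81, macrophage genes from -0.29 to 0.32, lymphocyte genes from -1.01 to 0.13, mast cell genes from 0.58 to 1.06, erythroid genes from 1.06 to 2.25, the follicle activation pathway from -0.11 to -0.02 and mitochondrial genes from -0.69 to 0.03. The replicate block gave 0.17 for hormone receptors and 0.64 for adipocyte genes. Within the spread between samples, the sign of the surface epithelium median (0.29) turned to -0.47 with the replicate block and -1.10 by limma-voom, and that of the luteal median (-0.55) to 0.32 with the replicate block. The block takes wild-type replicate 2 out of the genotype difference. Without that sample alone these 2 medians were -0.04 and 0.13. Without the 2 samples low in surface epithelium, a choice made after the data were seen, hormone receptors were at 0.19, follicle activation at -0.12, Hox genes at 0.19 and mitochondrial genes at -0.74.

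Among named genes whose difference exceeded its SE, those that turned direction were Pecam1 (-0.31 to 0.81 leaving out single samples), Adgre1 (-0.10 to 0.48), C1qa (-0.25 to 0.57), Tap2 (0.05 without the 2 samples) and Fos (0.20 by limma-voom, -1.25 to 0.43). Genes with a difference below its SE turned too, among them Star (-0.89 to 1.00), Lhcgr (-0.99 to 0.42) and Cyp11a1 (-0.95 to 0.21). The cause was not tested. Over all comparisons of list medians and call counts, those printed here included, 341 stayed within the set bounds and 35 moved.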

Other observations

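Within 10 Mb of Cdkn1b on chromosome 6, 143 genes were tested. Of these 19 had an unadjusted p below 0.05 in edgeR, or 13.3%, against 9.63% of all genes tested, with 8 higher and 11 lower in null. Ccnd2, given above at 467 to 872 CPM in wild type and 229.9 to 404 CPM in null, is among the 11. Rerg, a Ras-like GTPase gene, was at 65.1, 53.4, 52.8 and 58.8 CPM in wild type and at 104, 73.1 and 118 CPM in null. Gpr19, an orphan receptor gene beside Cdkn1b, was at 4.82, 3.95, 6.41 and 5.29 CPM in wild type and at 2.98, 2.82 and 2.76 CPM in null. Mgst1, a microsomal glutathione transferase, was at 131 to 187 CPM in wild type and 202 to 258 CPM in null. Cd9, a tetraspanin, was at 49.8 to 55.6 CPM in wild type and 60.6 to 86.3 CPM in null. The strain of the mice is not in the labels, so DNA carried along with the null allele cannot be told apart from the loss of the gene. These genes were looked at after the data were seen.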
